A study of Arabidopsis thaliana with 9 samples.

Results

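Steady state mRNA levels of Arabidopsis thaliana seedlings grown in continuous white light (WLc) were set against those of seedlings grown in true darkness (D). Of the 17680 genes in the deposited table, the 17210 with a level of at least 10 pseudo-counts in WLc, in D or in both were compared. A pseudo-count is a read count that has been adjusted to a library size common to all libraries. Both groups were wild-type seedlings of the Columbia-0 accession on MS medium without sucrose, with 3 libraries each. WLc seedlings grew for 2 days under white light of 100 µE per square metre and second after 4 days of stratification, the cold treatment that evens out germination. D seedlings received 3 h of white light to start germination and 5 min of far-red light to switch active phytochrome off again, and then grew for 2 days in the dark at 21 °C. The GEO labels place the far-red pulse before the 4 days of stratification and the methods of the study place it after them. Neither source names the germination light or the far-red pulse for WLc, so that these steps and the light of the last 2 days cannot be told apart in the comparison. A further group of 3 libraries, dark-grown seedlings given 1 h of red light, belongs to the series and is not part of the comparison.

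A seedling that emerges in the dark lives on its seed reserves, elongates its hypocotyl, keeps its cotyledons closed and holds its plastids as etioplasts. Light perceived by phytochromes and cryptochromes starts photomorphogenesis, in which elongation slows, the cotyledons open and chloroplasts form. The phytochrome-interacting factors (PIFs) are bHLH transcription factors that maintain the dark programme and are degraded once phytochrome is activated.

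Each level below is the authors' mean over the 3 libraries of a group. No library values were at hand, so no SD and no test between samples can be given, and genes are described by the size of their difference. The difference is log2(WLc + 1) minus log2(D + 1), and genes that differ at least 2-fold on that scale are called higher or lower. The number of reads behind a level, estimated as described below, sets the counting error of a difference. Counting intervals are those of the plain ratio of reads, without the 1 added to each level. At low levels they are therefore not centred on the difference printed beside them. At a level of 10 in WLc and in D, which is about 31 reads, the 95% counting interval (exact, Clopper-Pearson) extended 0.77 log2 units up and down. Levels of 100 narrowed this to 0.23 and levels of 1000 to 0.07. These intervals cover counting error only and say nothing of the spread between plants. In whole seedlings, fewer cells of a type and less RNA per cell cannot be told apart.

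Of the genes compared, 2407 (14.0%) were higher in WLc and 1827 (10.6%) were lower, together 24.6%. Counts for the gene lists below stand beside these shares, and no list was tested against them. The median difference over all genes was 0.02 and 90% of genes fell between the 5th percentile of -1.63 and the 95th percentile of 2.02. For 1676 genes on the higher side (9.74%) and 1368 on the lower side (7.95%) the whole counting interval lay beyond 2-fold. Differences of at least 8-fold were seen for 438 higher and 225 lower genes, and of at least 64-fold for 34 and 15 genes. A level of 10 was reached only in WLc by 932 genes and only in D by 497 genes. Just inside that level lay PLT1 (AT3G20840) with 10.01 pseudo-counts in WLc and 3.63 in D, and just outside it lay AT3G18310 with 9.9998 in WLc and 8.54 in D. Of the 175 genes with a mean level over 10000, 33.1% were higher and 16% lower, and of the 7805 genes between 100 and 1000, 10.4% were higher and 9.87% lower.

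**Figure D1:**
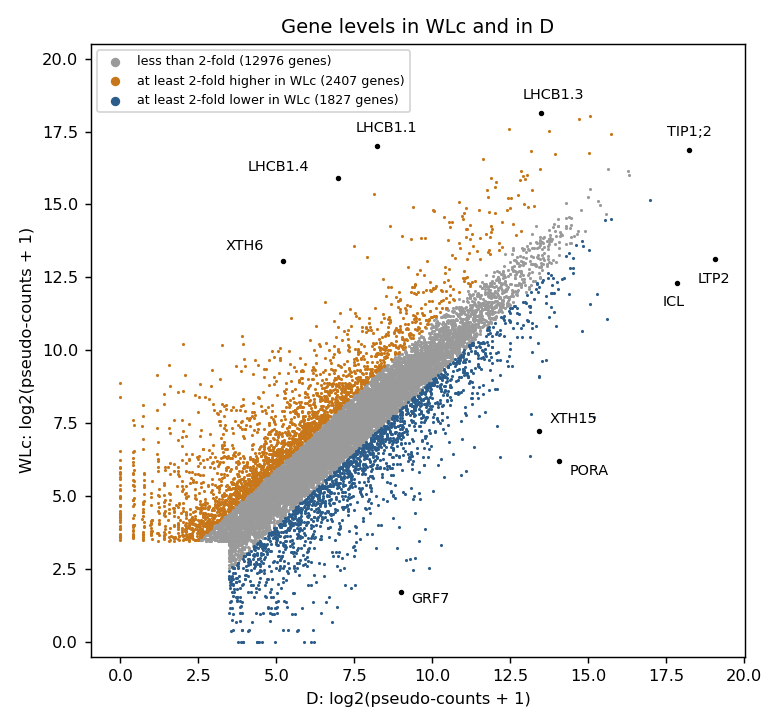
Levels of the 17210 genes compared, WLc on the vertical axis and D on the horizontal axis, both as log2(pseudo-counts + 1). Orange points are the 2407 genes at least 2-fold higher in WLc, blue points the 1827 at least 2-fold lower and grey points the rest, and 10 genes named in the text are marked in black.

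Markers of the main seedling tissues were measured in both groups. The epidermal regulator ATML1 (AT4G21750) stood at 1155 pseudo-counts in WLc and 1132 in D, the root endodermis regulator SCR (AT3G54220) at 186 in WLc and 180 in D, and the companion cell sucrose carrier SUC2 (AT1G22710) at 632 in WLc and 436 in D. Other markers of these tissues differed in both directions. TTG1 (AT5G24520), of the epidermis list, stood at 564 in WLc and 272 in D (1.05). It came under 2-fold with columns scaled to the same total. PDF1 (AT2G42840), an epidermal protein gene, stood at 4016 in WLc and 15338 in D (-1.93), and the Casparian strip genes CASP1 and CASP2 of the root endodermis are given below. Of 10 pollen and flower markers 3 were listed in the table, of which SOC1 (AT2G45660), a flowering regulator, with 80.8 in WLc and 6.25 in D (3.50) and SPL8 (1.66) were higher and PI (0.41) did not reach 2-fold. Of 9 phloem and vasculature markers 3 were higher (median 0.76), of 9 secondary wall and xylem markers 1 was lower (median -0.28), and of 21 meristem and leaf genes 5 were higher and 1 lower (median 0.44). Over all genes 14.0% were higher and 10.6% lower.

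The mRNAs for photosynthesis made up very different shares of the pool. Genes for the photosystems, their antennae, electron transport and the Calvin cycle, 76 in all, held 27.1% of all pseudo-counts in WLc and 3.50% in D, and 70 of them were higher and none lower (median 2.89, against 0.02 over all genes). The members that did not reach 2-fold included the antenna gene LHCB4.3 (AT2G40100), with 30.6 in WLc and 48.6 in D, and RBCS2B (AT5G38420), a small subunit of Rubisco, with 6754 in WLc and 4316 in D. The 5 LHCB1 genes encode the main chlorophyll-binding protein of photosystem II. Reads were counted at the 3′ end only, so that levels do not scale with transcript length. LHCB1.3 (AT1G29930) stood at 286860 in WLc and 11354 in D. Its tandem neighbour LHCB1.1 (AT1G29920) stood at 131110 in WLc and 301 in D, and LHCB1.4 (AT2G34430) at 61067 in WLc and 124 in D. LHCB1.5 (AT2G34420) stood at 195890 in WLc and 5609 in D, and LHCB1.2 (AT1G29910) at 41877 in WLc and 278 in D. The 5 copies were thus spread more widely in D than in WLc. Within the Rubisco small subunit family RBCS1B (AT5G38430) stood at 14848 in WLc and 866 in D, and the differences of RBCS1A (1.75) and RBCS3B (1.68) fell under 2-fold when the columns were quantile-normalized. The counting was restricted to reads that map to a single place. All 50-base windows in the last 500 bases of the transcript occurred in no other gene for 1007 of 1064 list members and ranked genes examined, and PGLP1, RVE7 and PRR9 were the 3 with fewer than 50% such windows.

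**Figure D2:**
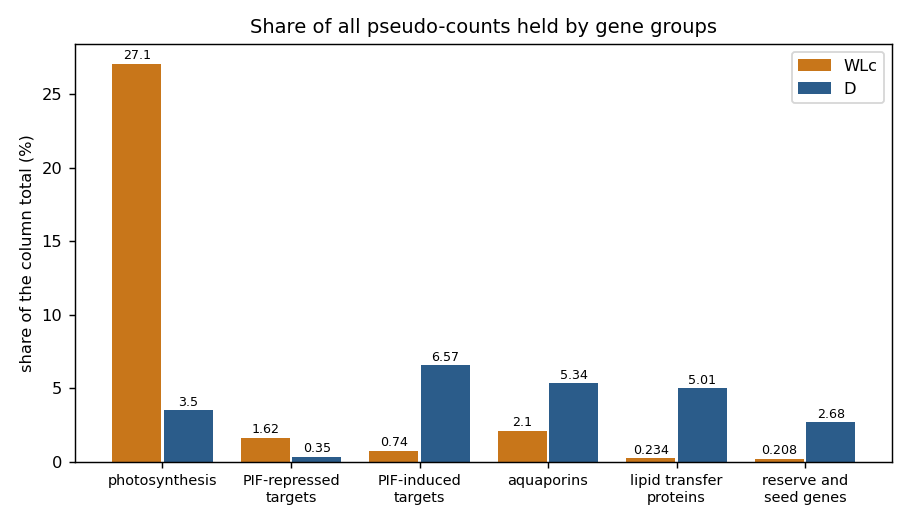
Share of all pseudo-counts of a column, in percent, held by 6 gene groups in WLc (orange, left) and in D (blue, right), from 1 mean per group with no error to show. Photosynthesis genes held 27.1% in WLc and 3.50% in D, and PIF-induced targets 0.74% in WLc and 6.57% in D.

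Photorespiration, the salvage of the product that Rubisco makes with oxygen, showed the same direction across its compartments. Of 18 genes 15 were higher and none lower (median 2.46). GGAT1 (AT1G23310), the peroxisomal glutamate:glyoxylate aminotransferase, stood at 45722 pseudo-counts in WLc and 3428 in D (3.74). SHM1 (AT4G37930), the mitochondrial serine hydroxymethyltransferase, stood at 13952 in WLc and 1465 in D (3.25), and GLDP1 (AT4G33010), the P-protein of glycine decarboxylase, at 6929 in WLc and 782 in D (3.15). The plastid enzymes that take the released ammonium back, GS2 (AT5G35630) and GLU1 (AT5G04140), differed by 2.32 and 3.32. Glycerate kinase (GLYK, 0.55), catalase CAT2 (0.69) and the H-protein GDCH (0.85) did not reach 2-fold. CAT3 (AT1G20620), another catalase, was lower, with 1809 in WLc and 15832 in D (-3.13).

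Transcripts for the tuning and protection of the thylakoid differed in part. Of 16 genes of state transitions and cyclic electron flow 13 were higher and none lower (median 1.598). With columns scaled to the same total 9 of them were higher. STN7 (AT1G68830), the kinase that phosphorylates the mobile antenna, stood at 686 in WLc and 46.1 in D (3.87), and PGRL1A (AT4G22890), which acts with PGR5 in cyclic flow, at 1216 in WLc and 96.0 in D (3.65). STN8, the related kinase that acts on the photosystem II core, stood at 93.2 in WLc and 92.7 in D. Of 17 redox defence genes 8 were higher and 2 lower (median 0.74). Those higher included the plastid enzymes TAPX (thylakoid ascorbate peroxidase, 1.91), NTRC (1.77) and GR (a glutathione reductase with 5728 in WLc and 2025 in D). VTC2 (1.42), not a plastid enzyme, was higher too. The plastid members SAPX (-0.07) and 2CPA (0.74) and cytosolic APX1 (-0.53) did not reach 2-fold. Tocopherol cyclase VTE1 (AT4G32770) stood at 189.6 in WLc and 11.7 in D (3.90), and VTE4 (AT1G64970), the last methyltransferase of tocopherol synthesis, was lower, with 38.2 in WLc and 93.6 in D (-1.27).

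The genes listed for plastid ribosomes, plastid RNA polymerase and protein import did not, as lists, follow the photosynthesis genes. The plastid sigma factor SIGE, given below, was higher (4.94). Of 34 nuclear genes for plastid ribosomal proteins 1 was higher, PRPL27 at 1.01 and under 2-fold when the columns were scaled to the same total, and none was lower (median 0.18). Of 15 genes listed for plastid RNA polymerases and associated proteins 1 was higher and 2 were lower (median -0.29), against 14.0% and 10.6% of all genes. The higher one was RPOTMP (1.33), which encodes an RNA polymerase itself. The 2 lower were the iron superoxide dismutases FSD2 (-1.14) and FSD3 (-1.02), and FSD3 came under 2-fold with a pseudocount of 5. Of 23 genes for protein import into chloroplasts and folding there 5 were higher and 1 lower, and their median lay at -0.01, or 0.13 after quantile normalization. TIC62 (AT3G18890) stood at 245 in WLc and 23.7 in D (3.31), whereas TOC33 (AT1G02280), an import receptor at the outer envelope, stood at 414 in WLc and 1207 in D (-1.54). CPSRP43 (AT2G47450), which carries antenna proteins to the thylakoid, was higher (2.09) and CPSRP54, its partner, differed by -0.01.

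The RNA was captured by its poly(A) tail, so the levels of organelle transcripts hold only their polyadenylated part. Of 30 transcripts of the plastid genome 18 were higher in WLc and none lower (median 1.38). ATCG00020 stood at 171 in WLc and 9.17 in D (4.08), ATCG00680 at 99.8 in WLc and 11.1 in D (3.05), and ATCG01130 at 831 in WLc and 1156 in D (-0.47). Of 13 transcripts of the mitochondrial genome none was higher and 6 were lower (median -0.82). The lower ones all had few reads, and ATMG00160 and ATMG00670 came under 2-fold with a pseudocount of 5. ATMG00070 differed most, with 4.13 in WLc and 19.7 in D (-2.01). The abundant ATMG00020 stood at 66726 in WLc and 81000 in D (-0.28). The medians of the 2 organelles thus lay on opposite sides of 0.

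Synthesis of thylakoid fatty acids, starch and plastid precursors was represented unevenly. FADA (AT4G27030), the desaturase that makes the trans fatty acid of phosphatidylglycerol in thylakoids, stood at 1157 pseudo-counts in WLc and 8.56 in D (6.92, counting interval 6.52 to 7.69). FAD5 (AT3G15850), a plastid palmitate desaturase, stood at 4050 in WLc and 484 in D (3.06). The endoplasmic reticulum desaturases FAD2 (0.21) and FAD3 (-0.80) did not reach 2-fold, and in all 7 of 20 genes of fatty acid and thylakoid lipid synthesis were higher and none lower (median 0.57), or 7 higher and 2 lower with columns scaled to the same total. Of 22 starch and sucrose genes 8 were higher and 4 lower (median 0.56). GBSS1 (AT1G32900), the granule-bound starch synthase, stood at 746 in WLc and 42.3 in D (4.11), and the ADP-glucose pyrophosphorylase subunit APL1 (AT5G19220) at 2233 in WLc and 350 in D (2.67). BAM3 (AT4G17090), a beta-amylase that degrades starch at night, was higher too, with 392 in WLc and 2.98 in D (6.63, interval 6.11 to 8.17). On the lower side were the glucose-6-phosphate carrier GPT2 (AT1G61800), with 1.62 in WLc and 30.5 in D (-3.59), and APL3 (AT4G39210), with 6.10 in WLc and 33.8 in D (-2.29). Enzymes of starch synthesis in leaves, a beta-amylase and the triose phosphate carrier APE2 (2.80) were thus higher while GPT2 and APL3 were lower. Of 8 SWEET sugar transporters 4 were higher and none lower, and SWEET2 (AT3G14770), a vacuolar sugar carrier, stood at 601 in WLc and 40.8 in D.

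Nitrogen and sulfur assimilation genes were higher in part. Nitrate reductase NIA2 (AT1G37130) stood at 24285 in WLc and 1328 in D (4.19), NIA1 (AT1G77760) at 6142 in WLc and 858 in D (2.84), and nitrite reductase NIR1 (AT2G15620) at 11199 in WLc and 3578 in D (1.65). The 2 asparagine synthetase genes went apart. ASN2 (AT5G65010) stood at 3230 in WLc and 93.1 in D (5.10), and ASN1 (AT3G47340), the dark-inducible copy, at 1989 in WLc and 3671 in D (-0.88). The nitrate transceptor gene NRT1.1 (AT1G12110) lay at -0.92. Of the 16 nitrogen genes 8 were higher and 2 lower, against 7 and 5 with columns scaled to the same total. Of 12 sulfur genes 5 were higher and 1 lower (median 0.81), and 3 of the higher ones encode adenosine 5'-phosphosulfate reductases, the step that commits sulfate to reduction. APR2 (AT1G62180) stood at 1329 in WLc and 155 in D (3.09), while SULTR2-1 (AT5G10180), a sulfate transporter of the vascular tissue, stood at 261 in WLc and 673 in D (-1.36).

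Genes of iron supply differed in both directions. Of 20 iron and copper genes 11 were higher and 4 lower (median 1.66). The 4 bHLH regulators of subgroup Ib, which are induced in iron-deficient plants, all had low levels in D. BHLH038 (AT3G56970) stood at 162 pseudo-counts in WLc and 1.94 in D (5.79, interval 5.22 to 7.80), BHLH039 (AT3G56980) at 268 in WLc and 11.3 in D (4.46), and BHLH101 (AT5G04150) at 116.5 in WLc and 1.32 in D (5.66). BHLH100 (AT2G41240) had 2 reads in D, against 124 pseudo-counts in WLc, a factor of 186 with a counting interval from 51.5 to 1552. IRT1 (AT4G19690), the root iron transporter, stood at 56.2 in WLc and was listed at 0 in D, and its reductase partner FRO2 (AT1G01580) stood at 32.7 in WLc and 6.86 in D. FIT, the bHLH partner of these regulators, stood at 43.9 in WLc and 48.7 in D. The nicotianamine synthase NAS4 (AT1G56430) was higher (5.08), as were the regulators PYE (1.72) and BTS (2.04). Of 4 genes for ferritins, which store iron, 2 were lower. FER1 (AT5G01600) stood at 1756 in WLc and 9471 in D (-2.43), FER4 (AT2G40300) at 298 in WLc and 1143 in D (-1.93), while FER3 (-0.97) and FER2 (-0.64) did not reach 2-fold.

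Copper genes also differed in both directions. The copper transporter COPT2 (AT3G46900) stood at 217 in WLc and 8.90 in D (4.46). The copper/zinc superoxide dismutases CSD1 (AT1G08830) and CSD2 (AT2G28190) were lower, CSD1 with 275 in WLc and 974 in D (-1.82) and CSD2 with 860 in WLc and 2852 in D (-1.73). Plastocyanin, the copper protein of photosynthetic electron transport, was higher in both copies, PETE2 (AT1G20340) with 271120 in WLc and 33859 in D and PETE1 (AT1G76100) with 3617 in WLc and 453 in D, both close to 8-fold. The iron superoxide dismutase FSD1 (AT4G25100) stood at 10511 in WLc and 8156 in D (0.37). OPT3 (AT4G16370), a phloem transporter involved in iron distribution, stood at 468 in WLc and 38.5 in D (3.57).

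**Figure D3:**
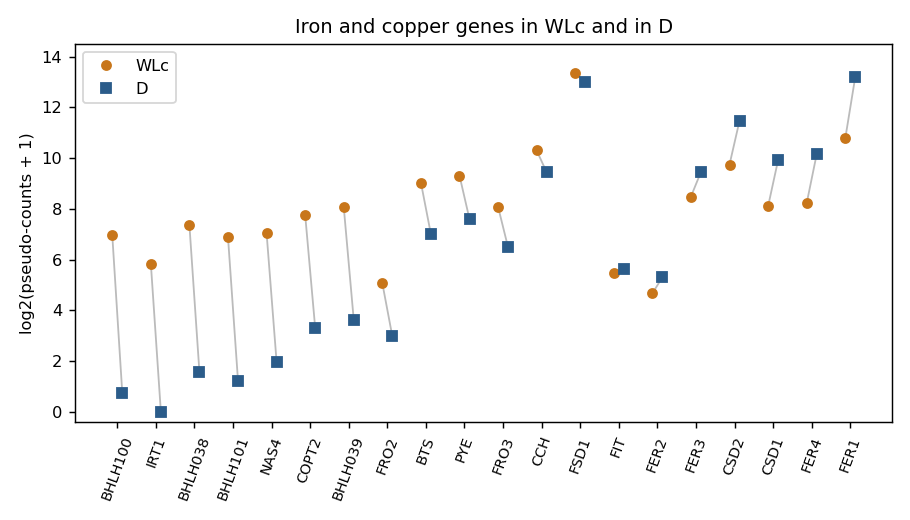
Levels of 20 iron and copper genes as log2(pseudo-counts + 1), in WLc (orange circles, left of each pair) and in D (blue squares), sorted by their difference, from 1 mean per group with no error to show. The 4 bHLH genes of subgroup Ib, IRT1, NAS4 and COPT2 lie below 4 in D and between 5 and 9 in WLc, and FER1, FER4, CSD1 and CSD2 are the 4 genes at least 2-fold lower in WLc.

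PIF-direct targets, genes bound by PIFs and misregulated in dark-grown seedlings that lack the 4 main PIFs, were defined in earlier work and were taken here from the lists of the study. Of 209 PIF-induced targets 191 reached the level of 10, and of these 123 (64.4%) were lower and 8 (4.19%) higher in WLc, with a median of -1.55. Of 129 PIF-repressed targets 106 reached it, and of these 52 (49.1%) were higher and 7 (6.6%) lower, with a median of 0.86. These shares stand beside 10.6% lower and 14.0% higher over all genes. At 4-fold, 78 PIF-induced targets were lower, where 3.38% of all genes were, and 34 PIF-repressed targets were higher, where 5.06% of all genes were. The remaining 60 PIF-induced and 47 PIF-repressed targets differed by less than 2-fold.

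PIF-induced targets held 0.74% of all pseudo-counts in WLc and 6.57% in D, and most of this came from a single gene. LTP2 (AT2G38530), a lipid transfer protein of the cell surface, had the highest level of all genes in D. It stood at 8888 in WLc and 551930 in D (-5.96, interval -5.97 to -5.94), which is 0.07% of the column in WLc and 4.82% in D. Without it the PIF-induced targets held 0.67% in WLc and 1.75% in D. Other members with large differences were mixed in function. RTFL21 (AT1G67265), of a family of small peptides, stood at 6.40 in WLc and 693 in D (-6.55). XTH15 (AT4G14130), a xyloglucan endotransglucosylase, stood at 151 in WLc and 10864 in D, IAA19 (AT3G15540), an auxin response repressor, at 18.0 in WLc and 423 in D (-4.48), and ACS5 (AT5G65800), an ethylene synthesis enzyme, at 1.90 in WLc and 103 in D (-5.16). PRE5 (AT3G28857), a growth-promoting HLH protein, stood at 2.59 in WLc and 166 in D (-5.54), and SNRK2.5 (AT5G63650), a protein kinase, at 169 in WLc and 4292 in D (-4.66). The Kunitz-type protease inhibitor gene AT1G72290 was listed at 0 in WLc and stood at 57.6 in D. Of the PIF-induced targets higher in WLc, the transporter gene AT3G21670 differed most, with 1621 in WLc and 144 in D (3.49), and the kinase WNK6 stood at 712 in WLc and 226 in D (1.65).

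The PIF-repressed targets with the largest differences were mixed in function. AT3G55240 stood at 436 in WLc and 2.01 in D (7.18, interval 6.65 to 9.23). RPT2 (AT2G30520), a partner of the phototropin blue light receptors, stood at 9313 in WLc and 237 in D (5.29), the plastid sigma factor SIGE (AT5G24120) at 132 in WLc and 3.32 in D (4.94), and the plastid thioredoxin-like CDSP32 (AT1G76080) at 1011 in WLc and 31.9 in D (4.94). Photosynthesis genes in this list included LHCB2.3, LHCA2, PSBQ2 and RCA. The whole list held 1.62% of pseudo-counts in WLc and 0.35% in D. The 7 members lower in WLc included LOX1 (AT1G55020), a lipoxygenase, with 145 in WLc and 400 in D (-1.45), and the lectin-like gene AT5G18470, with 18.6 in WLc and 93.5 in D (-2.27).

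HLH regulators of growth were mostly lower. Of 15 genes 11 were lower and 1 higher (median -2.01), and the higher one, BEE3, fell under 2-fold with columns scaled to the same total. HEC2 (AT3G50330) stood at 4.87 in WLc and 948 in D (-7.34) and HEC1 (AT5G67060) at 28.9 in WLc and 775 in D (-4.70). Both encode bHLH proteins that bind PIFs. HFR1, PAR1 and PAR2, HLH proteins that restrain elongation, differed by -2.90, -2.29 and -3.03, and KDR and IBH1 by -2.50 and -1.90. Promoters and inhibitors of elongation were both among the lower genes. Of 25 CONSTANS-like and B-box genes 14 were higher and 5 lower (median 1.502). COL7 (AT1G73870) stood at 721 in WLc and 1.96 in D (7.93, interval 7.38 to 9.95), COL2 (AT3G02380) at 1018 in WLc and 27.9 in D (5.14), and BBX23 (AT4G10240), with 3 reads in WLc, at 85.6 in D, where it exceeded WLc by a factor of 87.4 (interval 29.5 to 426). Of the regulators of chloroplast development, CGA1 (AT4G26150) stood at 335 in WLc and 4.69 in D (5.88) and its paralogue GNC at 132 in WLc and 110 in D (0.27).

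Transcripts of seed storage and of reserve breakdown were lower in WLc for most of the genes listed. Of 11 oleosin and seed storage genes 10 were lower and none higher (median -3.08), and the exception, SDP6, encodes a mitochondrial glycerol-3-phosphate dehydrogenase (-0.67). OLEO3 (AT5G51210), an oil body protein, stood at 9.17 in WLc and 1231 in D (-6.92). Of 13 late embryogenesis abundant proteins 12 were lower, with COR47 (AT1G20440) at 2838 in WLc and 8908 in D (-1.65), and LTI30 was higher (1.37). Isocitrate lyase (ICL, AT3G21720), the first enzyme of the glyoxylate cycle, alone held 0.041% of pseudo-counts in WLc and 2.08% in D. The other 17 genes of fatty acid breakdown and the glyoxylate cycle held 0.10% in WLc and 0.36% in D. Of all 18 genes 10 were lower and 1 higher (median -1.24). Of the peroxisomal acyl-CoA oxidases, which open each round of beta-oxidation, ACX2 (-1.80) and ACX1 (-1.51) were lower, while ACX3 (-0.87) and ACX4 (-0.58) did not reach 2-fold. Among the seed aquaporins, TIP3;2 (AT1G17810) stood at 14.4 in WLc and 189 in D (-3.62) and TIP3;1 (AT1G73190) at 4.19 in WLc and 40.6 in D. The dormancy gene DOG1 (AT5G45830) went the other way, with 19.1 in WLc, and was listed at 0 in D.

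**Figure D4:**
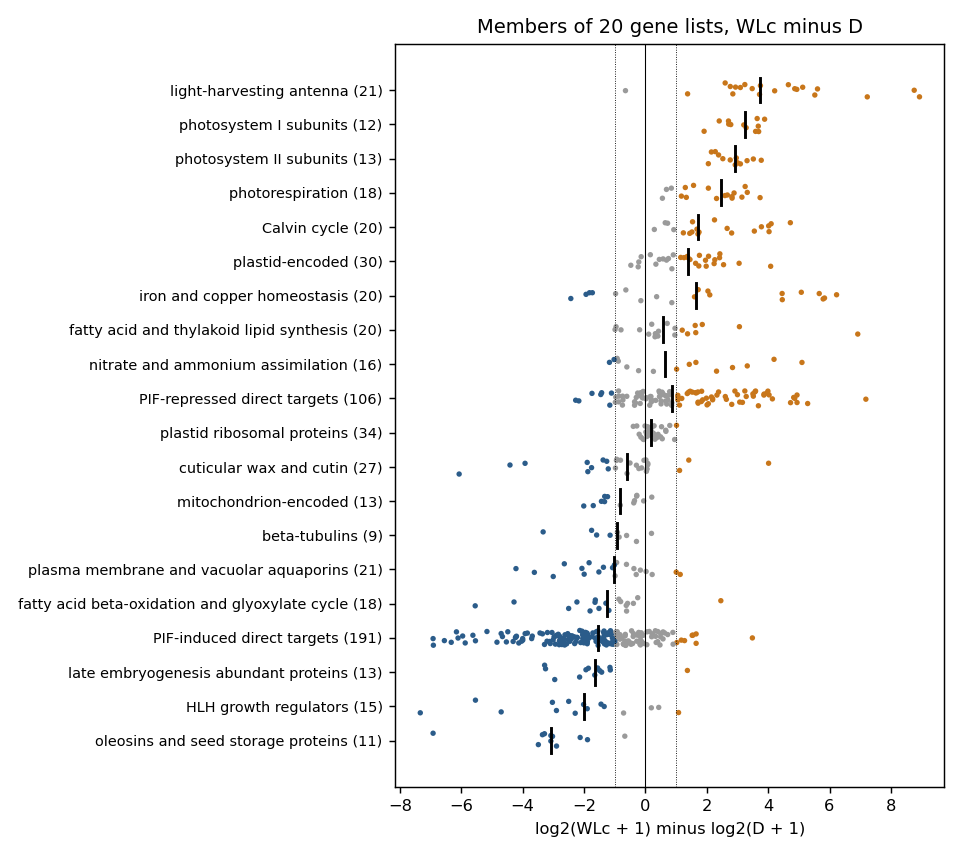
Difference log2(WLc + 1) minus log2(D + 1) of each member of 20 gene lists, 1 point per gene, with the number of members compared in parentheses and a black bar at the median. Orange points are at least 2-fold higher in WLc, blue points at least 2-fold lower, and dotted lines mark 2-fold, and the medians span 3.75 for antenna genes to -3.08 for oleosins and seed storage proteins.

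Genes of water transport, the cytoskeleton and the cell surface were lower in many cases. Of 21 aquaporins of the plasma membrane and vacuole 11 were lower and 2 higher (median -1.01), and together they held 2.1% of pseudo-counts in WLc and 5.34% in D. TIP1;2 (AT3G26520) stood at 118420 in WLc and 305590 in D (-1.37), PIP1C (AT1G01620) at 36512 in WLc and 130270 in D (-1.84), and PIP2;4 (AT5G60660) at 85.6 in WLc and 1612 in D (-4.22). PIP1;4 (AT4G00430) was higher, with 3264 in WLc and 1486 in D (1.13), and PIP2;8 was so (1.00) in the setting used here but not with columns scaled to the same total. Of 9 beta-tubulins 4 were lower and none higher (median -0.91). TUB1 (AT1G75780) stood at 412 in WLc and 4166 in D (-3.33), TUB6 (AT5G12250) at 4829 in WLc and 14530 in D (-1.59), and TUB7 (0.20) and TUB2 (-0.29) lay near 0. None of 10 genes of primary wall cellulose synthesis reached 2-fold (median -0.49). Among the XTH genes, 11 of 23 were lower and 4 higher. Of the higher ones, XTH6 (AT5G65730) stood at 8544 in WLc and 36.1 in D (7.85) and XTH7 (AT4G37800) at 12231 in WLc and 179 in D (6.09).

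Lipid transfer proteins other than LTP2 and the cuticle genes did not share a single direction. Of 9 lipid transfer protein genes LTP2 was the only lower one, while LTP1 (AT2G38540), its tandem neighbour, stood at 3928 in WLc and 705 in D (2.48) and LTP8 (AT2G18370) at 63.5 in WLc and 1.90 in D (4.47). LTPG1, at -0.92, was lower as well with columns scaled to the same total. Of 27 wax and cutin genes 9 were lower and 3 higher (median -0.60), against 10.6% lower and 14.0% higher of all genes. With columns scaled to the same total 12 of these genes were lower and 2 higher. CER1 (AT1G02205), which makes the alkanes of the wax, stood at 31.0 in WLc and 681 in D (-4.41), and KCS1 (AT1G01120), a fatty acid elongase, at 643 in WLc and 2398 in D (-1.90). The wax ester synthase WSD1 (AT5G37300) had 2 reads in WLc, and its ratio of D to WLc was 172 with an interval from 45.6 to 1376. GPAT6 (AT2G38110), an acyltransferase of cutin synthesis, had 25.9 pseudo-counts in WLc and 2 reads in D, and WLc exceeded D by a factor of 38.9 (interval 10.4 to 327). CER6 (AT1G68530), the main elongase of wax, stood at 8939 in WLc and 13524 in D (-0.60).

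Some organ and cell type genes differed and others did not. The Casparian strip proteins CASP1 (AT2G36100) and CASP2 (AT3G11550) of the root endodermis were lower, CASP1 with 952 in WLc and 3699 in D (-1.96) and CASP2 with 429 in WLc and 2534 in D (-2.56). The endodermal regulators SCR (0.05) and SHR (-0.38) and the root hair genes RSL4 (0.47), COBL9 (0.75) and EXPA7 (0.49) did not reach 2-fold. The root markers PLT1 (1.25) and PLT2 (1.44) were higher, PLT2 with 12.4 in WLc and 3.93 in D. Both came under 2-fold with a pseudocount of 5. Of 11 growth-regulating factors, transcription factors of leaf cell proliferation, and their cofactors 5 were lower and 1 higher. The higher one, GRF4 (AT3G52910), stood at 273 in WLc and 130 in D (1.06) and came under 2-fold with columns scaled to the same total. GRF7 (AT5G53660) stood at 2.26 in WLc and 504 in D (-7.28, interval -9.10 to -6.74) and GRF2 (AT4G37740) at 81.5 in WLc and 488 in D (-2.57), whereas the cofactors GIF1 (0.50), GIF2 (0.33) and GIF3 (-0.41) did not reach 2-fold. In the stomatal lineage FAMA (AT3G24140), which acts in the last division, stood at 442 in WLc and 119 in D (1.89) and SCRM2 (AT1G12860) at 312 in WLc and 97.6 in D (1.67), and MYB88 (AT2G02820) was lower (-1.59). BASL (1.11), SDD1 (1.05) and HT1, with 3 reads in D, were higher too. MUTE (0.28), TMM (0.38), ICE1 (0.40), FLP (-0.32) and KAT1 (-0.90) were among those that did not reach 2-fold. The median of the stomatal list was 0.39, and with a pseudocount of 5 it held 3 higher genes and 1 lower. Of 22 cell cycle and DNA replication genes 3 (13.6%) were higher, all B-type cyclins, against 14.0% of all genes, and 1 was lower, the endoreduplication gene SIM (AT5G04470) with 434 in WLc and 1362 in D (-1.65).

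Defence and secondary metabolism genes included several with few or no reads in D. LOX2 (AT3G45140), a plastid lipoxygenase of jasmonate synthesis, stood at 337 in WLc and was listed at 0 in D, and AT1G22690, of the gibberellin-regulated GASA type, stood at 474 in WLc and was listed at 0 in D. AOC2 (AT3G25770) differed by 3.76 and AOC4 (AT1G13280), another allene oxide cyclase, by -1.44. The median of 19 jasmonate genes was 0.15 and turned to -0.003 with quantile normalization. The glucosinolate regulator MYB28 (AT5G61420) had 45.2 pseudo-counts in WLc and 3 reads in D, a factor of 45.3 (interval 15.2 to 222), and CYP83A1 (AT4G13770), an enzyme of aliphatic glucosinolates, stood at 35.9 in WLc and was listed at 0 in D. CYP83B1 (AT4G31500), its counterpart for indole glucosinolates, was lower, with 540 in WLc and 1194 in D (-1.14), and in all 4 of 11 glucosinolate genes were higher and 1 lower. Of 10 genes of ER bodies, the myrosinase stores of seedlings, 4 were lower and none higher (median -0.82), with PYK10 (AT3G09260) at 9189 in WLc and 23567 in D (-1.36). NDA1 (AT1G07180), an internal NADH dehydrogenase of mitochondria, stood at 569 in WLc and 1.26 in D (7.98), and NDA2, its close relative, at 27.5 in WLc and 46.4 in D (-0.73).

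The reference annotation places products in compartments for 11051 of the genes compared, of which 14.7% were higher and 10.2% lower. Of 277 thylakoid genes 48.4% were higher and 3.61% lower, and of 2314 chloroplast or thylakoid genes 545 were higher and 128 lower. Genes of the apoplast, cell wall or extracellular region had the reverse balance, with 74 of 512 higher and 120 lower. Of 199 cytosolic ribosome genes 5.53% were higher and 3.02% lower, and of 679 mitochondrial genes 11.2% and 6.19%. Gene order on the chromosomes was also examined among the nuclear genes compared. Genes under the level of 10 or absent from the table were skipped, so that neighbours here need not be adjacent on the chromosome. Of 2389 nuclear genes higher in WLc, 16.6% were followed by a gene that was also higher, against 13.9% of all genes, and for lower genes the shares were 12.9% and 10.6%. The longest run of neighbouring genes with the same call held 6 genes, AT5G44530 to AT5G44580, of which AT5G44550 differed most, with 321 in WLc and 6.10 in D (5.50). A run of 5 held the resistance genes RPP4, SNC1 and RPP5, where RPP5 (AT4G16950) stood at 1290 in WLc and 194 in D (2.73), and these genes are close copies of each other. A run of 4 held LHCB1.2, LHCB1.1 and LHCB1.3 with NRPA2.

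Promoters were read for short motifs in windows from 250 bases before to 50 after the gene start of the RefSeq annotation of TAIR10.1, on both strands, for 17159 nuclear genes. The motifs were CACGTG (the G-box), CACATG (the PIF-binding element), GATAAG (the I-box), AAAATATCT (the evening element), AAACCCTA (the telo-box), CATGCA (the core of the RY element), CCGAC (the dehydration element core), TGGGCC (site II) and GAANNTTC (the heat shock element core). A match is a description of the sequence and not of binding. Genes at least 8-fold lower in WLc held CATGCA in 29.3% of 225 windows, those at least 8-fold higher in 11.5% of 436, and all genes in 8.57%. For oleosin and seed storage genes this was 9 of 11 windows. CACATG was present in 24.9% of the strongly lower windows, in 16.5% of the strongly higher ones and in 13% of all. The letters CACATG and CATGCA can overlap as CACATGCA, which occurred in 183 of all windows and in 13 of the 225, and outside such overlaps CACATG was present in 21.3% of the strongly lower windows and 12.1% of all. GATAAG was present in 24.3% of the strongly higher windows, in 15.1% of the strongly lower ones and in 15.3% of all, and in 39.5% of 76 windows of photosynthesis genes and 47.1% of 34 windows of plastid ribosomal proteins, whose levels were near equal in WLc and D. TGGGCC was rarer in both, with 8.94% of the strongly higher windows, 6.67% of the strongly lower ones and 19.4% of all. CACGTG was present in 14.0%, 13.3% and 9.17% of the same windows. The median G and C content of the windows was 32.3% for strongly higher, 31.0% for strongly lower and 31.7% for all genes.

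**Figure D5:**
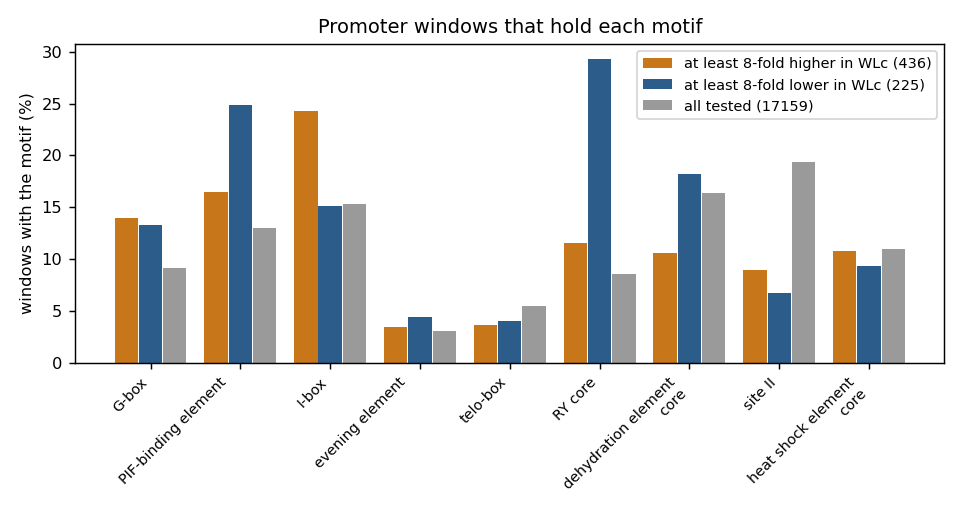
Percent of promoter windows that hold each of 9 motifs, for 436 genes at least 8-fold higher in WLc (orange), 225 at least 8-fold lower (blue) and all 17159 genes with a window (grey). The RY core stands at 29.3% in strongly lower genes and 8.57% in all, the I-box at 24.3% in strongly higher genes and 15.3% in all.

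Sequences of 5 promoters show these letters in place, in the 250 bases before the gene start with every match to any of the 9 motifs, on either strand, in capitals, 5′ to 3′ along the gene. PSAH2 and LHCB6 stand for photosynthesis genes with a G-box and an I-box, IAA19 for PIF-induced targets with a G-box and a PIF-binding element, and OLEO3 and SESA5 for seed genes with a G-box and RY cores, as well as the overlap CACATGCA. The RefSeq TAIR10.1 positions are chr1:19454548-19454797 on the plus strand for PSAH2 (AT1G52230), chr1:5447881-5448130 on the minus strand for LHCB6 (AT1G15820), chr3:5263751-5264000 on the plus strand for IAA19, chr5:20819818-20820067 on the plus strand for OLEO3 and chr5:22239188-22239437 on the minus strand for SESA5 (AT5G54740).
PSAH2: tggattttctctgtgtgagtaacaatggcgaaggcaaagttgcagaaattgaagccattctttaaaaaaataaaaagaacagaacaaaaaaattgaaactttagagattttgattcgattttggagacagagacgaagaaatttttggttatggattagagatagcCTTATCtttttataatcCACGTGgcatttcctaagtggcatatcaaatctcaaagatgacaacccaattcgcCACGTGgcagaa
LHCB6: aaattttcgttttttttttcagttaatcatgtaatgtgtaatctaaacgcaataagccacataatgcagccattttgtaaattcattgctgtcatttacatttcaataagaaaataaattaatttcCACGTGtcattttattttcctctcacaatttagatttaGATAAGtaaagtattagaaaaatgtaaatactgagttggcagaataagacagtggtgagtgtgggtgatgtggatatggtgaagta
IAA19: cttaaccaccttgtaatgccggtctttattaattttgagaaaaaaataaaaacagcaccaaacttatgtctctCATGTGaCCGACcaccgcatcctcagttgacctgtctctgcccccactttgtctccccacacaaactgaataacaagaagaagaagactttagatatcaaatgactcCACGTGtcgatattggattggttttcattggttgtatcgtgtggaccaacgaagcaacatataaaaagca
OLEO3: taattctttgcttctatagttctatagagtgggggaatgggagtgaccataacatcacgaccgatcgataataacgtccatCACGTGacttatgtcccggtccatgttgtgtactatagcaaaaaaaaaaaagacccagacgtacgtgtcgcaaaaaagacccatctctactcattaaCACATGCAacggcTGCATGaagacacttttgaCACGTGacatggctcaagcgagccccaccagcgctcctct
SESA5: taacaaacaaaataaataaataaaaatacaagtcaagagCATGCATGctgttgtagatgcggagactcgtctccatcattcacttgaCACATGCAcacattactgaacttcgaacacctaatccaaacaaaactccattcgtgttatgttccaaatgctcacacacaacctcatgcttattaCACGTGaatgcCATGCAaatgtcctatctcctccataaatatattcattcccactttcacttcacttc
In PSAH2, which stood at 21765 in WLc and 1473 in D, the G-boxes begin 67 and 12 bases before the gene start and the I-box 84 bases before it. In LHCB6, a minor antenna gene with 55701 in WLc and 4227 in D, the G-box begins 124 and the I-box 86 bases before it. IAA19, a gene bound by PIFs, has its G-box 70, its PIF-binding element 177 and a dehydration element core 170 bases before the start. OLEO3, which is also a PIF-induced target, has G-boxes at 169 and 40 and RY cores at 70 and 59 bases before the start, and a PIF-binding element at 72 overlaps the RY core at 70. SESA5, a seed storage albumin gene with 28.8 in WLc and 251 in D, has 4 RY cores, of which 2 overlap each other, and a G-box at 68 bases. A PIF-binding element at 163 bases overlaps its RY core at 161.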

How the data were processed

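RNA of wild-type seedlings was measured by 3′-end RNA-seq in 9 libraries, of which 6 enter the comparison of WLc with D. The authors aligned 50-base reads with Bowtie to TAIR9 transcripts with 0 mismatches and counted unique reads in the last 500 bases of the coding strand. Using edgeR the authors then computed pseudo-counts and deposited 1 mean column per group, a signal with no library values. The sources used here name no version of either tool. Pseudo-counts summed to 12514000 in WLc and 11442000 in D. The authors' edgeR test needs library values and was not run. Replicates are not stated to come from separate cultures.

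Levels were read with pandas 2.3.3 and numpy 2.4.6, and intervals come from SciPy 1.17.1 in Python 3.11.15. The number of reads behind a level is the level divided by the mean of its column's 3 lowest steps. These steps were taken to be 1 read in 1 library (0.305 to 0.343 in WLc and 0.311 to 0.351 in D). Raw counts were not at hand, so all read numbers and the intervals built on them are estimates. Values below 1e-06 were read as 0. Genes with 1 to 3 reads in a group are given by the plain ratio, and those at 0 without a fold. The interval code was run on simulated libraries with counting error only, so that this run says nothing of the spread between real libraries. Alternatives were pseudocounts of 5 and 0.5, a minimum of 50 or none, 4-fold, columns scaled to the same total, quantile normalization and centring on the median.

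Genes named are the 20 highest and 20 lowest differences with a level of at least 50, members of the 71 lists (up to 4 called members per direction by size and the 2 others of highest level, any member of lists of up to 24), the 10 highest levels per column, up to 5 genes listed at 0 per column, genes next to the level of 10 and the longest runs of neighbours. PIF targets, wax genes and B-box genes named beyond this rule and the 5 promoters printed were chosen after their values were seen. The genes and lists were chosen with earlier results of these data known. Symbols come from RefSeq (TAIR10.1), in which 17628 of 17680 loci were found, and promoter coordinates are of that build, not of the study's TAIR9 models.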

Additional observations from a re-analysis of the deposited data

Results flagged for a closer look

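Outside the comparison, the third group of the series, dark-grown seedlings after 1 h of red light (R1h), held 89 genes with at least 10 pseudo-counts in R1h but under 10 in both WLc and D. The highest of them in R1h was AT4G35660, with 149 in R1h, 9.9998 in WLc, just under the minimum, and 4.95 in D. Next came AT3G30460, with 86.8 in R1h, 6.10 in WLc and 3.26 in D, and GA2OX1 (AT1G78440), a gibberellin-inactivating oxidase, with 63.7 in R1h, 0.331 in WLc and 0.941 in D. These are means of 3 libraries and no test was made.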

How the results depend on the processing

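No paired analysis was possible because the deposited table holds 1 mean per group and no library values, and for the same reason no replicate could be left out. At 4-fold, 871 genes were higher and 582 lower. Every other setting kept both counts within 1.5 times of 2407 and 1827. They were 2125 and 1670 with a pseudocount of 5, and 1648 and 1433 with a minimum of 50. Scaling the columns to the same total moved the median of all genes by -0.13 and turned the balance of higher against lower to 2073 and 2174, and quantile normalization gave 2085 and 2043. Of 699 called list members and ranked genes, 25 lost their call with equal totals, 22 with a pseudocount of 5 and 18 with quantile normalization, and none changed direction. Many differences nevertheless moved outside their counting interval. This held for 531 of 1300 genes with equal totals, 377 with quantile normalization and 109 with a pseudocount of 5. Of 71 list medians 28, 19 and 2 moved outside the median interval of their members in the same settings. List medians changed sign for glucosinolate genes with equal totals, and for jasmonate and plastid import genes with quantile normalization. Without the 10 highest genes of either column, photosystem I genes held 3.77% of WLc, against 6.04% with them. Low levels limit the ratios of genes with few reads in a group, and the spread between libraries is unknown for every gene.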
